A study of Mus musculus with 8 samples.

Results

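The expression of 37 macrophage and dendritic cell genes was examined in pubertal mouse mammary glands with and without a wild-type copy of Sox9, a transcription factor known from cartilage and from epithelial progenitors. The genes were taken from a fixed list of names, which was chosen with earlier results of these data known. A gene entered with the probe set that the platform annotation pairs with its symbol alone, and the brightest on average where a gene had several. All 37 were measured, each by 1 probe set, among 19938 genes in all. The glands came from 8 untreated virgin females of mixed C57BL/6 and FVB background, 5 weeks old. Every gland carried MMTV-Cre, in which a viral promoter that is active mainly in mammary epithelium drives the recombinase. In 4 glands Sox9 was floxed on both chromosomes (flox/flox), and the other 4 had 1 floxed and 1 wild-type copy (flox/+) and served as the controls. The labels do not say which MMTV-Cre line was used or which part of Sox9 the loxP sites enclose. Tissue numbers begin with one letter in all controls and with other letters in all flox/flox glands; what the letters mark is not stated, and anything they mark cannot be told apart from genotype. RNA of the part of the fourth gland next to its lymph nodes was hybridised to 1 Affymetrix Gene 1.0 ST array per gland.

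Macrophages depend on the receptor CSF1R and its ligand CSF1. In the growing gland they lie along the ducts and around the terminal end buds, where they clear dying cells and remodel matrix, and ducts grow poorly without them. Fc gamma receptors bind immunoglobulin G: FCGR1, FCGR3 and FCGR4 activate the cell through an associated signalling chain, whereas FCGR2B inhibits it. Complement C1q, made largely by macrophages, is assembled from A, B and C chains whose genes lie side by side on chromosome 4. Lymph nodes hold further macrophages of their own in their sinuses, and dendritic cells that present antigen to T cells.

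Of the 37 genes 0 passed limma's test at an adjusted p under 0.05, while 8 of all genes tested did, or 0.0401% (0.0301% higher and 0.01% lower in flox/flox). The unadjusted p was under 0.05 for 7 (18.9%), 2 higher and 5 lower in the flox/flox glands, where the share of all genes was 10.3%, 4.81% higher and 5.46% lower. For 3 of the 37 (8.11%), all lower in flox/flox, the 4 values of each genotype lay apart, against 5.9% of all genes, 2.74% higher and 3.16% lower. The median log2 difference, flox/flox minus flox/+, was -0.01 over the 37 genes and -0.01 over all genes. The single differences ran from -0.72 for Timd4 to 0.63 for Fcgr2b, with 16 positive (43.2%, against 47.4% of all genes) and 21 negative, and are plotted with their intervals by role. In total tissue RNA, fewer cells of a type and less RNA per cell cannot be told apart.

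**Figure D1:**
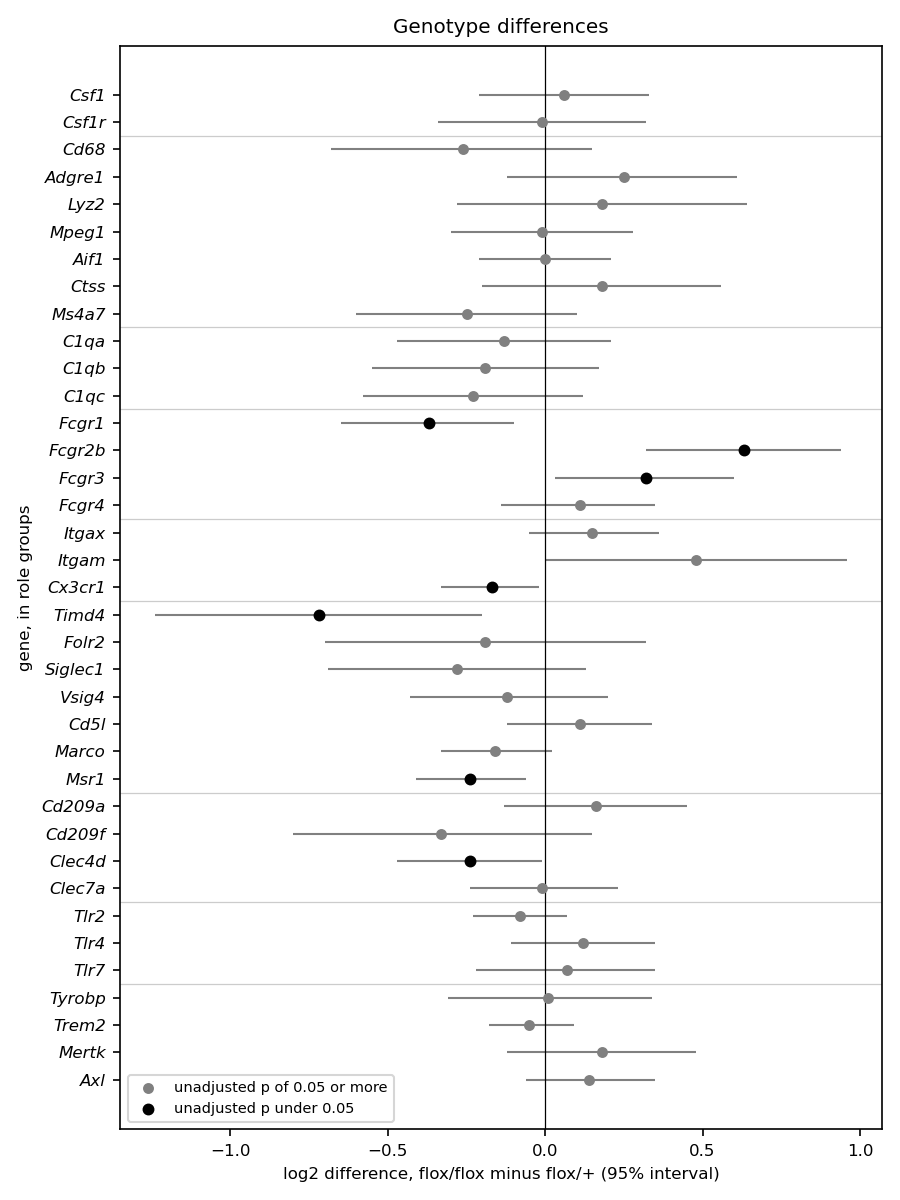
Log2 difference between the genotypes (flox/flox minus flox/+, x axis) for each of the 37 genes (y axis, in role groups), with limma's 95% interval as a bar, from 4 arrays per genotype. Black points mark the 7 genes at an unadjusted p under 0.05, with Fcgr2b at 0.63 farthest to the right and Timd4 at -0.72 farthest to the left.

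The deposited array medians lay between 159 and 178. Sox9 read 287 to 356 in flox/flox and 366 to 448 in flox/+ glands, without overlap, as did 5.9% of all genes. The log2 difference was -0.33 ± 0.09 (SE), or 79.4% of the control level. The 2-sided exact permutation p was 0.0286, the smallest that 70 assignments allow, but Sox9 did not pass limma's test (adjusted p = 0.256). The tissue carried its defining epithelial and fat markers in both genotypes, among them the keratin Krt8 at 2596 ± 270 in controls and 2464 ± 190 in flox/flox, and the fat hormone Adipoq at 5865 ± 373 and 5398 ± 355 (SD, n = 4). Of 8 brown and beige fat markers 0 passed limma's test, but all 8 differences were positive (median 0.41), 5 at an unadjusted p under 0.05. Ucp1 was at 0.58 ± 0.36 (SE), Cidea at 0.30 ± 0.18, Ppargc1a at 0.39 ± 0.15 and Elovl3, without overlap, at 1.94 ± 0.47. The summed intensity of all 8 markers was 4709 to 8816 in controls and 6882 to 12539 in flox/flox. The part of these fat cells in the members' differences was not tested. The control array flox/+ 2 stood apart in lymphoid markers, with a B cell score, the mean z-score of 13 markers, of 2.273 against -0.518 to -0.076 in the other 7 arrays. Its T cell score was 2.069, against -0.521 to 0.106.

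The promoters of genes on which the results turn are printed for the complement chains, which varied together across the arrays, and for 3 Fc gamma receptors, which differed in direction. Each runs from 250 bases before to 50 after the transcription start in RefSeq's annotation of GRCm38.p6 (the first start its table lists for the gene), 5′ to 3′ on the gene's own strand, and all 5 genes lie on the minus strand. Capitals mark GAGGAA or its reverse complement TTCCTC, a core bound by the myeloid factor PU.1. The windows are chr4:136886151-136886450 for C1qb, chr4:136892865-136893164 for C1qc, chr3:96293920-96294219 for Fcgr1, chr1:170976022-170976321 for Fcgr2b and chr1:171059354-171059653 for Fcgr3. The Fcgr3 window sits at an internal start, downstream of the gene's 5′ end in the annotation. The table used here held no entry for C1qa.
C1qb: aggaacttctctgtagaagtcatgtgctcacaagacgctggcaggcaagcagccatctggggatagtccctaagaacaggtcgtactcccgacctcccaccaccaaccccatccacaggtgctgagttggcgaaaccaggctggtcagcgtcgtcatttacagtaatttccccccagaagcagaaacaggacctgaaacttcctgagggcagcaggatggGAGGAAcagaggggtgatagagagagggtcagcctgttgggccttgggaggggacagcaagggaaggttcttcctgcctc
C1qc: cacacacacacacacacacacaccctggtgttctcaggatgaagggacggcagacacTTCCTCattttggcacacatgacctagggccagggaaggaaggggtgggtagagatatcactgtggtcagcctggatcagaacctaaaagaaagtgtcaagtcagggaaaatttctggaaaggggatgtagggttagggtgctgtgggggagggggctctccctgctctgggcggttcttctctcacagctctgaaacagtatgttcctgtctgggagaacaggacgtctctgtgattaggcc
Fcgr1: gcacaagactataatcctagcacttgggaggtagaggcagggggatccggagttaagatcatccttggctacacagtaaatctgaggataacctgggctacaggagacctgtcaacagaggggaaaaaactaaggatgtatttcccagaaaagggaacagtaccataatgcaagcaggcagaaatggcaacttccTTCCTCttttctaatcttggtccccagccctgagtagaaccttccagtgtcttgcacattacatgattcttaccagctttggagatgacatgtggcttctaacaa
Fcgr2b: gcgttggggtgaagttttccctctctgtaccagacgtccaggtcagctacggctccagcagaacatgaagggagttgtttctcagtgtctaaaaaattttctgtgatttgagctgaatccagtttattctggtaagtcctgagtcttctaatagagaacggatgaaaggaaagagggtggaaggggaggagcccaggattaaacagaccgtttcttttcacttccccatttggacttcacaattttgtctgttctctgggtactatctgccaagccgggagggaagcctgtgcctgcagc
Fcgr3: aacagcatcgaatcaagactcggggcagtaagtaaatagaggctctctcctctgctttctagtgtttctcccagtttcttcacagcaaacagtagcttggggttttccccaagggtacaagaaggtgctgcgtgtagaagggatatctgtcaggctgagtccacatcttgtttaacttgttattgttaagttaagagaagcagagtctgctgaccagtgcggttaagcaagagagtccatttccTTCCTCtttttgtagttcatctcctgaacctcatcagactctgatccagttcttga

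The motif began 30 bases before the start in C1qb, 193 in C1qc, 55 in Fcgr1 and 6 in Fcgr3, and the Fcgr2b window held none. Promoters were found for 29 members, of which 17 (58.6%) held GAGGAA on either strand, where 28.3% of 27025 genes with a window of the same length did. The longer GAGGAAGT, which contains the first motif, lay in 3 of the 29, Fcgr4, Ctss and C1qc, and in 3.28% of all. Clec4d held 3 matches, and Cx3cr1 and Timd4 held 0. A match describes letters and does not show binding, and no match says only that these letters are missing from the window.

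The Fc gamma receptors differed in direction. Fcgr2b, the inhibitory receptor, read 236, 267, 349 and 273 in flox/+ glands 1 to 4 and 524, 341, 490 and 429 in flox/flox glands 1 to 4. In flox/flox 1, 3 and 4 it lay above every control, and flox/flox 2 lay just below flox/+ 3, so the groups overlapped in that pair. The means were 446 ± 80.6 and 281 ± 47.9 (SD, n = 4), a 1.55-fold difference. On the log2 scale this was 0.63 ± 0.14 (SE; 95% interval 0.32 to 0.94), with a limma p of 0.000994 that became 0.18 after adjustment over all genes. Without 1 array at a time it stayed between 0.55 and 0.75.

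Fcgr1, the high-affinity activating receptor, ran the other way. It read 209, 241, 347 and 260 in flox/+ glands and 199, 195, 206 and 188 in flox/flox glands. Every flox/flox gland lay below every control, although flox/flox 3 and flox/+ 1 were close, and the SD was 7.35 in flox/flox against 58.9 in flox/+ glands. The log2 difference was -0.37 ± 0.12 (SE), with adjusted p = 0.324 in limma. Without flox/+ 3, its highest array, it was -0.24.

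Fcgr3, a low-affinity activating receptor, read 249, 213, 299 and 290 in flox/+ and 378, 272, 379 and 298 in flox/flox glands. Flox/flox 1 and 3 lay above every control, and the other pair lay within the control range. Its log2 difference was 0.32 ± 0.13 (SE), with adjusted p = 0.45. Fcgr4, another activating receptor, read between 78.6 and 114 in flox/+ and between 90.6 and 121 in flox/flox glands, with overlap and a log2 difference of 0.11 ± 0.11 (SE).

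Eosinophils and mast cells also carry FCGR2B, FCGR3 and the CD11b chain, and their markers were followed too. Of 12 such markers 0 passed limma's test; 11 differences were positive and 1 negative, with 5 higher and 0 lower at an unadjusted p under 0.05, a median of 0.24 and summed intensities of 2834 to 3650 in flox/flox and 2598 to 2949 in flox/+ glands. Their mean z-score was -0.580, -0.261, -0.263 and -0.589 in flox/+ glands 1 to 4 and 0.933, 0.112, 0.123 and 0.524 in flox/flox glands 1 to 4, so the groups did not overlap. Ccr3, the eotaxin receptor, was at 0.66 ± 0.18 (SE), while Siglecf was at 0.15 ± 0.11 and the granule genes Epx and Prg2 at 0.14 ± 0.08 and -0.17 ± 0.08. The part of these cells in the values of Fcgr2b, Fcgr3 and Itgam was not tested.

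**Figure D2:**
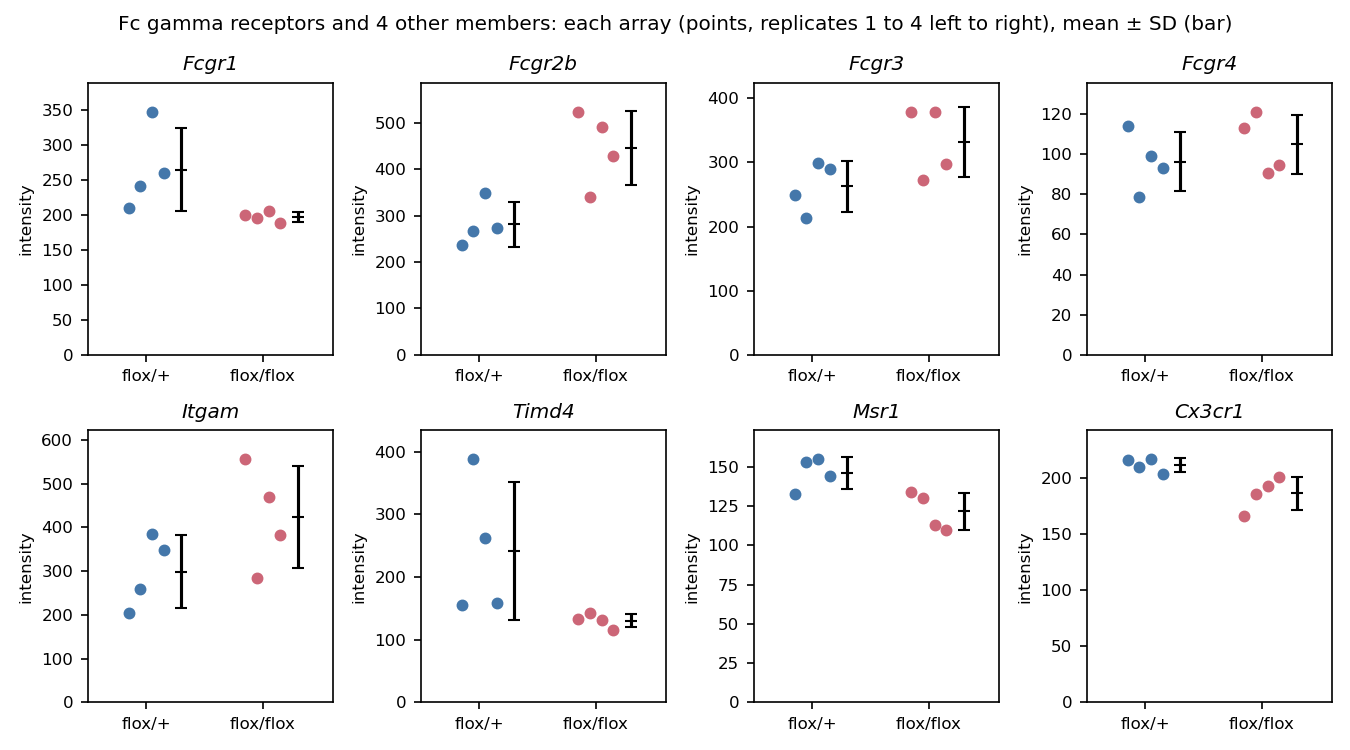
Intensity (y axis, from 0) of the 4 Fc gamma receptors, Itgam, Timd4, Msr1 and Cx3cr1 in each array by genotype (x axis), with points in the order of replicates 1 to 4 and a bar for mean ± SD, n = 4. Fcgr1 is tight in flox/flox (188 to 206) and lies below all controls. Fcgr2b in flox/flox lies above all controls, apart from flox/flox 2, which lies just below flox/+ 3. The Timd4 mean of the controls rests on replicates 2 and 3.

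Set against each other within an array, these receptors separated the genotypes. The log2 ratio of Fcgr2b to Fcgr1, relative to its mean in the controls, was 0.07, 0.04, -0.09 and -0.03 in flox/+ glands 1 to 4. In flox/flox glands 1 to 4 it was 1.23, 0.66, 1.10 and 1.03. The ratio of Fcgr3 to Fcgr1 lay between -0.21 and 0.23 in flox/+ and between 0.45 and 0.87 in flox/flox glands. The pairs were picked after their values were seen and were not tested, and a ratio shows unequal change without saying which gene moved. Each pair joined genes whose differences had opposite signs, so a shift of the ratio between genotypes follows from that choice. With the values as deposited the Fcgr2b to Fcgr1 ratio lay between 0.72 and 1.25 in flox/flox and between -0.08 and 0.06 in flox/+ glands.

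Adgre1 and Cd68, general macrophage markers, were paired in the same way, as were Itgam and Cd68, again with differences of opposite sign. Cd68, a lysosomal glycoprotein of macrophages, read 411, 510, 660 and 815 in flox/+ and 543, 386, 546 and 465 in flox/flox glands. Adgre1, which encodes the surface marker F4/80, read 277, 300, 376 and 474 in flox/+ and 487, 346, 484 and 370 in flox/flox glands. Each gene overlapped between the genotypes, with log2 differences of -0.26 ± 0.19 for Cd68 and 0.25 ± 0.17 for Adgre1 (SE, adjusted p = 0.671 and 0.654 in limma). Single arrays moved both: Cd68 was at -0.42 without flox/+ 1 and -0.10 without flox/+ 4, and Adgre1 at 0.14 and 0.39. The log2 ratio of Adgre1 to Cd68, again relative to the control mean, lay between -0.08 and 0.16 in flox/+ and between 0.39 and 0.55 in flox/flox glands. That of Itgam to Cd68 lay between -0.23 and 0.21 and between 0.54 and 0.99. The ratios within the C1q genes overlapped between the genotypes, from -0.05 to 0.06 and from 0.02 to 0.07 for C1qa to C1qb.

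**Figure D3:**
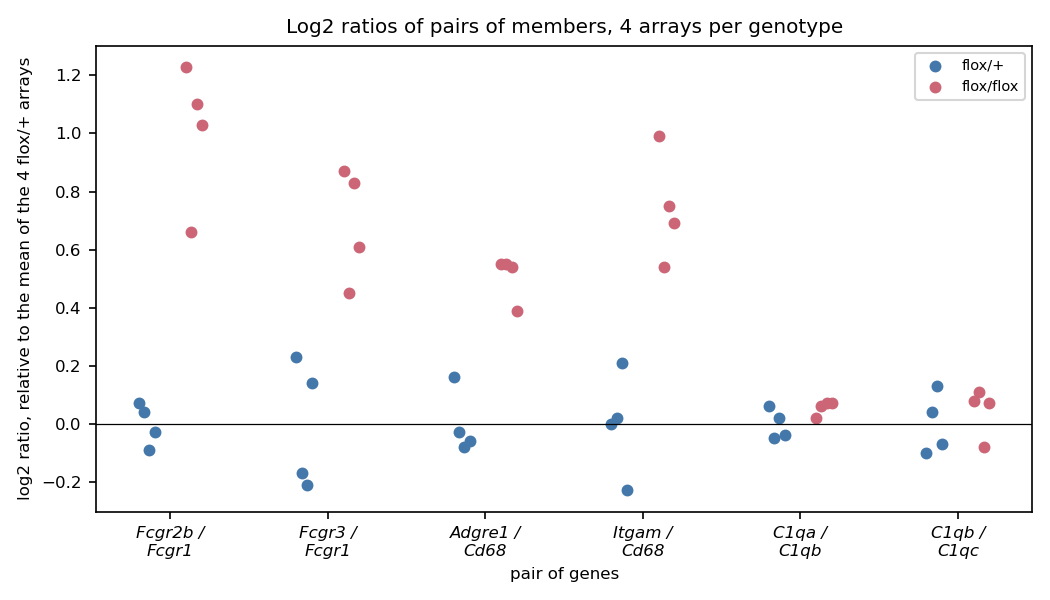
Log2 ratio within each array (y axis, relative to the mean of the 4 flox/+ arrays) for 6 pairs of genes (x axis), 4 arrays per genotype. The pairs of Fcgr2b and Fcgr3 with Fcgr1 and of Adgre1 and Itgam with Cd68 do not overlap between genotypes, whereas the C1q pairs do; the pairs were chosen after seeing the values.

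Among the other general macrophage genes no difference had an unadjusted p under 0.05. Lyz2, the lysozyme of macrophages and neutrophils, read 1587, 2812, 2449 and 2983 in flox/+ and 3481, 2051, 3120 and 2434 in flox/flox glands. The control flox/+ 1 was the lowest of all 8 and flox/flox 1 the highest, and the log2 difference was 0.18 ± 0.21 (SE). Ctss, the protease cathepsin S, followed a similar order, from 726 in flox/+ 1 to 1458 in flox/flox 1 (0.18 ± 0.17). Ms4a7, a membrane protein of macrophages, read 108 to 185 in flox/+ and 89.6 to 134 in flox/flox glands (-0.25 ± 0.16). Mpeg1, which encodes the pore-forming perforin-2, read 315 to 425 in flox/+ and 301 to 452 in flox/flox glands. Aif1, the calcium-binding protein IBA1, read 106 to 141 and 107 to 135.

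The growth factor axis had similar means in the genotypes. Csf1r, the receptor on which macrophages depend, read 727, 902, 1024 and 1107 in flox/+ and 1110, 731, 1012 and 883 in flox/flox glands. Its means were 940 ± 165 and 934 ± 164 (SD, n = 4), with a log2 difference of -0.01 ± 0.15 (SE). The 95% interval ran from -0.34 to 0.32, so a difference of either sign within it is not excluded. Its ligand Csf1 read 362 to 532 in flox/+ and 393 to 492 in flox/flox glands (0.06 ± 0.12).

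Of the 11 other colony-stimulating factor, KIT and FLT3 genes 0 passed the test. At an unadjusted p under 0.05 were Kitl, the ligand of the receptor KIT (0.30 ± 0.10 SE), and Csf2ra, a chain of the receptor for granulocyte-macrophage colony-stimulating factor (0.19 ± 0.08), and both were positive. Of 17 measured myeloid transcription factors 0 passed, with 4 positive and 1 negative at an unadjusted p under 0.05. Runx1, a regulator of blood cell formation (0.37 ± 0.10), and Cebpb, a factor of the inflammatory response (0.35 ± 0.10), had values without overlap. Klf4 was at 0.48 ± 0.14 and Tfec at 0.25 ± 0.11, and Irf4, which dendritic cells and lymphocytes use, was at -0.58 ± 0.19.

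The complement chains were high and low in the same arrays. C1qb read 768, 914, 1310 and 1156 in flox/+ and 1043, 784, 995 and 770 in flox/flox glands. C1qa read 646, 711, 1066 and 907 in flox/+ and 850, 659, 843 and 650 in flox/flox glands. C1qc read 662, 714, 959 and 976, and 792, 583, 846 and 588. In each of the 3, flox/+ 3 and 4 were the highest arrays, and flox/+ 1, flox/flox 2 and flox/flox 4 the lowest. The genotypes overlapped widely, with log2 differences of -0.13 ± 0.15 for C1qa, -0.19 ± 0.16 for C1qb and -0.23 ± 0.16 for C1qc (SE). Over the 8 arrays the SD of the log2 ratio was 0.05 for C1qa to C1qb and 0.09 for C1qb to C1qc, while the SD of the log2 levels was 0.26 to 0.29.

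Of 13 other measured complement genes 0 passed, with 0 positive and 2 negative at an unadjusted p under 0.05. These were C1s1, a protease of the C1 complex made by stromal cells and hepatocytes (830 ± 201 in controls and 517 ± 124 in flox/flox, SD, n = 4), and C4b, which encodes complement component C4 (1872 ± 356 and 1467 ± 159). Their log2 differences were -0.66 ± 0.18 and -0.34 ± 0.13 (SE).

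Among the integrins, Itgam, the CD11b chain of myeloid cells, read 204, 259, 385 and 349 in flox/+ and 556, 285, 470 and 383 in flox/flox glands. Flox/flox 1 and 3 exceeded every control and the others lay within the control range. The log2 difference was 0.48 ± 0.22 (SE), with a limma p of 0.0501 and adjusted p = 0.487. Itgax, the CD11c chain shared by dendritic cells and some macrophages, read 120 to 138 in flox/+ and 115 to 157 in flox/flox glands (0.15 ± 0.09). Cx3cr1, the fractalkine receptor of monocytes and ductal macrophages, read 216, 210, 217 and 204 in flox/+ and 166, 186, 193 and 201 in flox/flox glands. The groups did not overlap, by a narrow margin between flox/+ 4 and flox/flox 4, and the log2 difference was small (-0.17 ± 0.07 SE, adjusted p = 0.45).

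Genes of resident, sinus and scavenging macrophages had 6 negative differences of 7, where 10488 of all 19938 genes were negative. The 6 include Vsig4, which cannot be told from background. Timd4, a receptor for phosphatidylserine on resident macrophages, read 155, 388, 263 and 158 in flox/+ and 133, 142, 131 and 116 in flox/flox glands. All flox/flox glands lay below all controls, but the distance was small for flox/+ 1 and 4. The log2 difference was -0.72 ± 0.23 (SE, adjusted p = 0.315). The highest Timd4 value lay in flox/+ 2, the array with the high B and T cell scores; without that array the difference was -0.47, and with the B cell score as a covariate -0.48. Flox/+ 3, the next highest, had a B cell score of -0.247.

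Msr1, a scavenger receptor for modified lipoproteins, read 133, 153, 155 and 144 in flox/+ and 134, 130, 113 and 110 in flox/flox glands. The groups overlapped only between flox/+ 1 and flox/flox 1, and the log2 difference was -0.24 ± 0.08 (SE, adjusted p = 0.337). Marco, a scavenger receptor of sinus macrophages, read 141 to 172 in flox/flox and 166 to 197 in flox/+ glands (-0.16 ± 0.08), with its highest value in flox/+ 2.

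Folr2, a folate receptor of resident macrophages, read 359, 428, 702 and 683 in flox/+ and 588, 326, 531 and 422 in flox/flox glands. Siglec1, the sialic acid receptor CD169 of tissue and sinus macrophages, read 344, 469, 611 and 632, and 453, 323, 494 and 387. Both were highest in flox/+ 3 and 4 and lowest in flox/flox 2, with overlap and log2 differences of -0.19 ± 0.23 and -0.28 ± 0.19 (SE). Cd5l, a secreted protein of resident macrophages, read 63.9 to 93.8 in all. Vsig4, a complement receptor of resident macrophages, read 18.3 to 41.1 and cannot be told from background, since the table gives no detection calls.

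Of 21 other lectin and scavenger receptor genes 0 passed the test, with 2 positive and 2 negative at an unadjusted p under 0.05. Stab1, a scavenger receptor of macrophages and sinus endothelium, was at -0.29 ± 0.12 (SE), and Clec4n, the lectin dectin-2, at -0.28 ± 0.12. The positive pair belonged to the CD209 family, lectins related to DC-SIGN whose 7 measured genes lie on chromosome 8. Cd209d read 180 ± 28.3 in controls and 266 ± 59.1 in flox/flox (SD, n = 4), a log2 difference of 0.51 ± 0.14 (SE). Cd209c read 91.7 ± 11.2 and 124 ± 8.57 without overlap (0.38 ± 0.08).

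The members of this family had other values. Cd209a, a marker of dendritic cells that arise from monocytes, read 266, 282, 290 and 247 in flox/+ and 285, 256, 421 and 280 in flox/flox glands. Flox/flox 3 was far above the other 7 arrays, which overlapped, and the log2 difference was 0.16 ± 0.13 (SE). Cd209f, found on tissue macrophages, read 511, 538, 979 and 778 in flox/+ and 576, 372, 636 and 602 in flox/flox glands (-0.33 ± 0.22). Cd209b, Cd209e and Cd209g were at -0.29 ± 0.23, -0.09 ± 0.11 and -0.11 ± 0.17 (SE). Cd209b read 500 in flox/+ 2, the array with the high B and T cell scores. It read 190 to 255 in the other controls and 190 to 264 in flox/flox glands. Cross-hybridisation between members of such families was not tested.

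Clec4d, a lectin that senses mycobacterial glycolipid, read 66.8, 73.0, 59.4 and 50.8 in flox/+ and 41.7, 57.2, 54.0 and 48.1 in flox/flox glands, with overlap (-0.24 ± 0.10 SE, limma adjusted p = 0.466). Its mean level lay at percentile 10.5 of all genes, and without detection calls its distance from background is not known. Clec7a, the beta-glucan receptor dectin-1, read 116 ± 21.3 in controls and 114 ± 7.87 in flox/flox (SD, n = 4).

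The Toll-like receptors had small differences. Tlr4, the receptor for bacterial lipopolysaccharide, read 257 to 371 in flox/flox and 262 to 318 in flox/+ glands (0.12 ± 0.11 SE). Tlr7, which senses single-stranded RNA, read 108 to 159 and 101 to 150 (0.07 ± 0.13). Tlr2, the receptor for bacterial lipopeptides, read 211, 199, 203 and 229 in flox/+ and 205, 201, 185 and 203 in flox/flox glands (-0.08 ± 0.07). Of 18 other genes of the pathway 0 passed limma's test, and 0 reached 0.05 before adjustment.

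Of the phagocytic and signalling receptors, Axl and Mertk recognise dying cells through bridging proteins. Axl read 730, 837, 972 and 864 in flox/+ and 994, 902, 852 and 1008 in flox/flox glands (0.14 ± 0.09 SE). Mertk read 335 to 512 and 411 to 590 (0.18 ± 0.14). Tyrobp, the adaptor DAP12 that carries the signal of TREM2 and other receptors, read 331 ± 60.7 in controls and 334 ± 60.0 in flox/flox (SD, n = 4). Trem2, a lipid-sensing receptor, read 194, 174, 176 and 188 in flox/+ and 182, 173, 178 and 175 in flox/flox glands. With an SD of 0.05 on the log2 scale over the 8 arrays it had the least spread of all 37, whereas that of its adaptor was 0.24. The mean level of Trem2 lay at percentile 45.8 of all genes, and without detection calls its distance from background is not known.

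Of 19 measured Fc receptor and ITAM signalling genes 0 passed, with 2 positive at an unadjusted p under 0.05. They were the inhibitory receptor Lilrb4a (0.31 ± 0.12 SE) and the phospholipase Plcg2 (0.17 ± 0.07). Of 13 genes for the uptake of dying cells 0 passed; Mfge8, a bridging protein also made by the epithelium, was at -0.31 ± 0.10, and Elmo1, an engulfment protein, at 0.22 ± 0.09. Of 19 lysosomal genes 0 passed; the collagen-degrading protease Ctsk was at -0.60 ± 0.17 and the tetraspanin Cd63 at -0.30 ± 0.08.

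Dendritic, monocyte and neutrophil markers were followed beside the members. None of 19 dendritic, 10 monocyte and 14 neutrophil markers passed limma's test (0 each), with 2, 1 and 1 higher and 2, 1 and 1 lower at an unadjusted p under 0.05. Xcr1 and Clec9a, of cross-presenting dendritic cells, were at 0.23 ± 0.10 and 0.28 ± 0.15 (SE), and Flt3 and Zbtb46 at -0.03 and -0.06. The summed intensity of the dendritic markers was 9618 to 11455 in flox/flox and 8346 to 11116 in flox/+ glands, that of the monocyte markers 8002 to 12648 and 9746 to 12424, and that of the neutrophil markers 4112 to 4520 and 3399 to 4352. Bright genes weigh most in these sums, and the lists are not specific. The dendritic list holds Epcam (1005 ± 63.0 in controls, SD), also a luminal marker here, and the monocyte list holds Fn1, also a fibroblast marker here. The sums therefore do not measure these cells alone. Of the monocyte markers, the chemokine receptor Ccr2 was at 0.26 ± 0.13 (SE), Chil3 at 0.21 ± 0.15, Plac8 at -0.01 ± 0.22 and Vcan, a matrix proteoglycan, at -0.53 ± 0.20 with an unadjusted p of 0.0226. Of the neutrophil markers, S100a8 and S100a9 were at -0.03 and -0.07, Ly6g at 0.12 ± 0.07 and Retnlg at 0.44 ± 0.15 with an unadjusted p of 0.0135.

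The 37 genes varied more between arrays than most. The median SD of log2 levels over the 8 arrays was 0.24 for them and 0.13 for all genes, and 20 of the 37 (54.1%) had an SD above the 90th percentile, as did 9.95% of all genes. The widest were Timd4 at 0.55, Itgam at 0.45, Fcgr2b at 0.41, and Cd209f and Folr2 at 0.40. Much of this spread lay within the genotypes. The lowest of the 8 values was in flox/+ 1 for 13 genes and in flox/flox 2 for 10, together 23 of 37 (62.2%), against 28.9% of all genes. The highest was in flox/flox 1 for 11 genes, in flox/+ 3 for 8 and in flox/+ 4 for 6. These arrays held the highest value of 12.4%, 13.3% and 19% of all genes, in the same order.

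**Figure D4:**
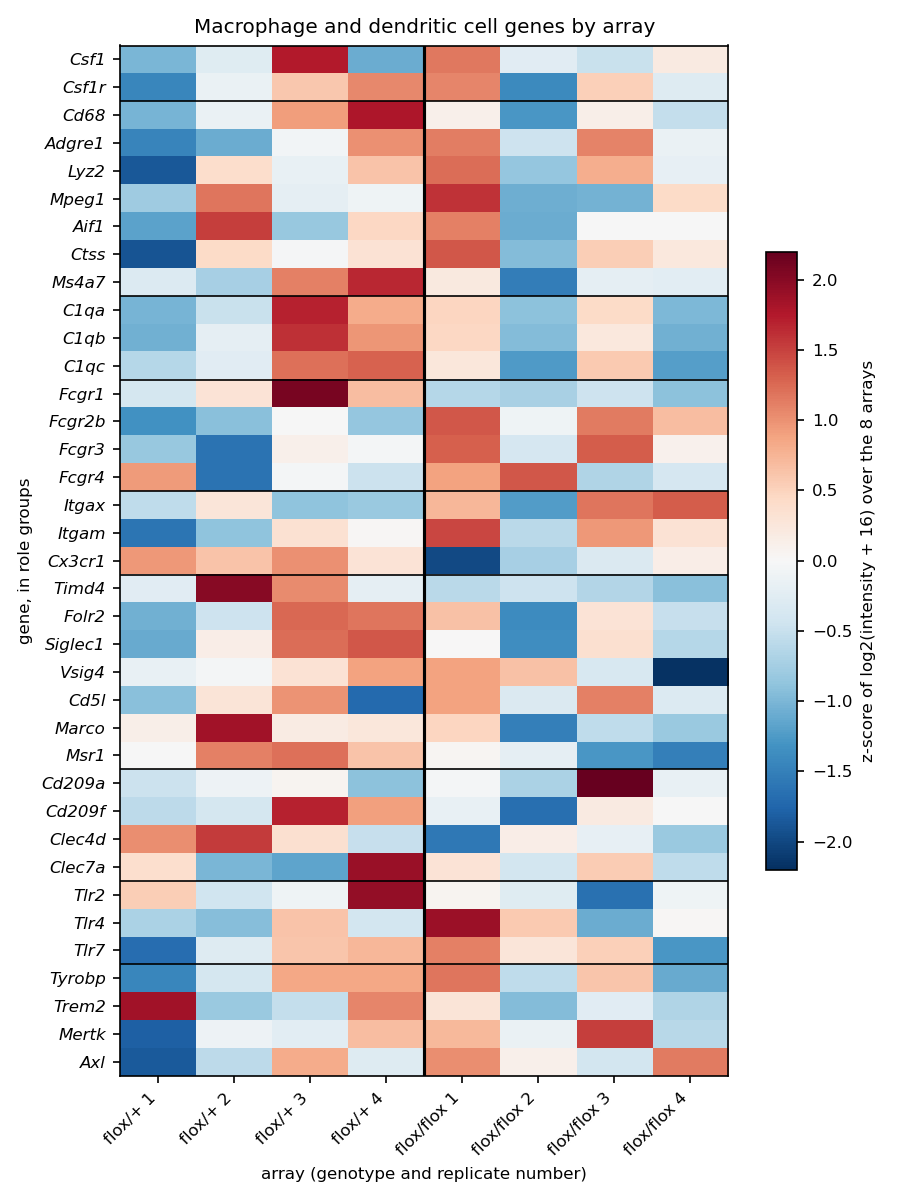
Z-score of log2(intensity + 16) over the 8 arrays (colour) for the 37 genes (rows, in role groups parted by lines) in each array (columns, with the genotypes parted by the thick line). The columns flox/+ 1 and flox/flox 2 hold the lowest value of 23 genes, and Fcgr2b, Fcgr3 and Itgam are redder on the flox/flox side while Fcgr1, Timd4 and Msr1 are bluer.

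The arrays also differed in fibroblast markers. The fibroblast score, the mean z-score of 12 markers, was -1.365 in flox/flox 2 and -0.438 in flox/+ 1, and 1.160 and 0.847 in flox/+ 3 and 4, where the C1q genes, Folr2 and Siglec1 were highest. In flox/flox 1, where Lyz2, Ctss and Csf1r were highest, it was -0.222, and in flox/flox 4, where the members' mean z-score was -0.362, it was -0.017. The part of these cells in the values above was not tested. Of the 12 fibroblast markers 4 were lower and 0 higher at an unadjusted p under 0.05, with a median of -0.25 and summed intensities of 42809 to 54357 in flox/flox and 48541 to 62330 in flox/+ glands. The collagens Col1a1, Col1a2 and Col3a1 were each at -0.27, and the receptor Pdgfra at 0.02.

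Over the 8 arrays 110 relations were computed, of each member to the B cell score, the white adipocyte score and the level of Csf1r, with exact permutation p-values adjusted together. Only the relations to the B cell and adipocyte scores were planned, and those to Csf1r were added after the data were seen. None of the 37 genes passed for the B cell or the adipocyte score (0 by Pearson's r and 0 by Spearman's rho), with 4 and 0 at an unadjusted p under 0.05 by r. Since flox/+ 2 stood apart from the other 7 arrays in the B cell score, no pooled r is given for it.

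Csf1r went together with many members. Folr2 had r = 0.93 (exact permutation p = 0.00151, adjusted p = 0.103; rho = 0.88, p = 0.00724, adjusted p = 0.133) and Tyrobp r = 0.89 (p = 0.00325, adjusted p = 0.103; rho = 0.98, p = 0.000397, adjusted p = 0.0437), exact permutation tests over n = 8 arrays. Without flox/+ 1 and flox/flox 2, the arrays farthest from the median of Csf1r, r was 0.86 and 0.94. In all 10 of the other 36 genes had r above 0.8, among them C1qa, C1qb, C1qc, Cd68 and Adgre1; 15 had an unadjusted p under 0.05 and after adjustment 0 passed by r and 1, Tyrobp, by rho. Fcgr2b had r = 0.45 and Fcgr1 r = 0.40 over all arrays (exact permutation p = 0.253 and 0.327, n = 8, adjusted p = 0.845 and 0.906; rho = 0.55 and 0.36, p = 0.171 and 0.389, adjusted p = 0.47 and 0.682). Without the same pair of arrays r was 0.16 and 0.23, and centred within genotype 0.84 and 0.56.

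**Figure D5:**
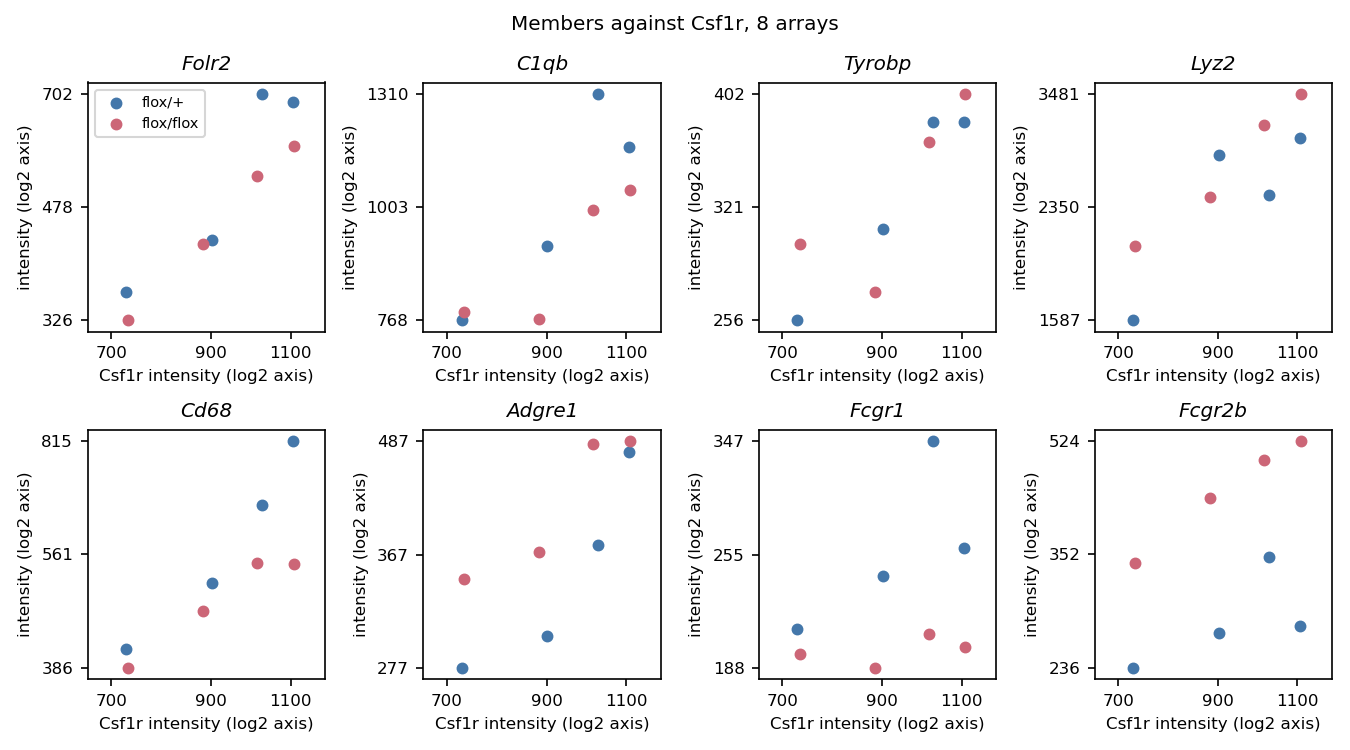
Intensity of 8 genes (y axes, log2) against that of Csf1r (x axes, log2) in the 8 arrays, coloured by genotype. Folr2 (r = 0.93) and Tyrobp (r = 0.89) follow Csf1r in both genotypes, whereas the flox/flox arrays lie above the flox/+ arrays of similar Csf1r for Fcgr2b and Adgre1 and below them for Fcgr1.

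The genotypes were therefore also compared at equal Csf1r, with its log2 level as a covariate in the fit over all other genes, a choice made after the data were seen. Under this fit 1 of the 36 remaining genes passed, Fcgr2b (0.64 ± 0.09 SE, limma adjusted p = 0.0477), while 25 of all genes did, or 0.125%. Itgam followed at 0.49 ± 0.08 with adjusted p = 0.0594. At an unadjusted p under 0.05 were 13 of 36 (36.1%), 4 positive and 9 negative, against 11.8% of all genes (5.72% positive and 6.1% negative). The positive ones were Fcgr2b, Itgam, Fcgr3 (0.32 ± 0.10) and Adgre1 (0.25 ± 0.09). Among the negative ones were Fcgr1 (-0.37 ± 0.11), Siglec1 (-0.27 ± 0.08), Cd68 (-0.25 ± 0.09), Msr1 (-0.24 ± 0.08) and C1qc (-0.22 ± 0.09).

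Another covariate, also chosen after the data were seen, was the mean z-score of 88 other genes, none of them a member. This myeloid score held the measured genes of several lists. They were myeloid transcription factors, complement, Fc receptor and ITAM signalling, the Toll-like receptor pathway, and lectins and scavenger receptors. Not all are specific to myeloid cells, since C1s1 is made by stromal cells. C1s1 and Runx1 were among those with an unadjusted limma p under 0.05 for genotype. Under this score no member was called. Fcgr2b was at 0.56 ± 0.09 (SE) with adjusted p = 0.0827 in limma, and 0 of the 37 genes passed, with 10 of all genes called (0.0502%). Itgam was at 0.35 ± 0.10 with adjusted p = 0.241. At an unadjusted p under 0.05 were 15 of 37 (40.5%), against 12.1% of all genes. Fcgr1 was at -0.41 ± 0.11, Siglec1 at -0.38 ± 0.11, Cd68 at -0.36 ± 0.13 and C1qc at -0.31 ± 0.10, each with an adjusted p above 0.2. Adgre1 was at 0.16 ± 0.11 with an unadjusted p of 0.179.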

How the data were processed

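The labels give genotype and replicate number in each sample's title, and each column of the table carries the identifier of 1 sample; the number of other columns is 0. Per the submitters' processing notes, the authors used PLIER and Affymetrix Expression Console 1.0, and the deposited table holds intensity on a linear scale. How background was corrected and arrays were normalized is not given in the sources used here. Precision is limited by the number of arrays.

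Of 35557 probe sets 21789 had 1 gene symbol, 1621 several and 12147 none, which left 19938 genes. Values plus an offset of 16 were taken to log2 and quantile normalized, and intensities in the text are these values with the offset removed again. Differences were tested in limma 3.58.1 (lmFit, eBayes; R 4.3.3), with Benjamini-Hochberg adjustment over all genes and a threshold of 0.05. Folds keep the offset and understate differences of dim genes. The series' design text gives 4 females per genotype with 1 array each, and whether replicate numbers mark a litter or day is not stated. The members and lists were chosen with earlier results of these data known. Values of every array are given for members at an unadjusted p under 0.05 or without overlap, those of highest mean in a role group, and those of most or least spread; genes of other pathway lists are named at an unadjusted p under 0.05, at most 5 a list, and of the dendritic, monocyte, neutrophil, fibroblast, eosinophil and mast cell, and brown fat markers the first 4 measured in list order; B and T cell markers are given as scores, and luminal and white fat markers by the first of each list. Others were chosen after their values were seen. The scripts were tested on simulated arrays. Promoters are RefSeq's (GRCm38.p6), matched by symbol for 29 of 37 members. Alternatives were another scaling, offset, filter, probe set rule, moderation, weights, covariates and each array left out.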

Additional observations from a re-analysis of the deposited data

Results flagged for a closer look

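Of 74 sets of 4 values (each of the 37 genes in each genotype) 1 held a value far from the other 3 by Dixon's test, where chance gives about 1 in 20. Marco read 197 in flox/+ 2 and 166 to 168 in the other controls. The same array had a B cell score of 2.273, and the part of lymph node tissue in this value was not tested.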

How the results depend on the processing

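The count of members past the threshold was 0 in 21 of 22 alternatives and 1, Fcgr2b, with Csf1r as covariate. Members at an unadjusted p under 0.05 numbered 13 and 15 with Csf1r and with the myeloid score as covariates, and 5 to 9 with 1 array left out. The count over all genes was 18 with median centring, 4 with an offset of 1, 19 with an offset of 64, 3 without the lowest 1 in 3 genes by mean level, 1 over all probe sets, 17 with trend and robust options, 25 with Csf1r as covariate and 2 to 21 with 1 array left out; the causes were not tested. Without flox/+ 4 or flox/flox 4 it was 2, without flox/+ 1 or flox/flox 1 it was 4, and without flox/flox 3 it was 21. The median of the members lay between -0.08 and 0.04, and that of Sox9 between -0.38 and -0.28.

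Of the 37 genes 28 kept their sign in every alternative, the 7 at an unadjusted p under 0.05 and Itgam among them. Fcgr2b had an adjusted p between 0.0477 and 0.371, Fcgr1 between 0.226 and 0.505 and Timd4 between 0.233 and 0.554. The sign of the other 9, among them Lyz2 at 0.18 and Vsig4 at -0.12, turned in some. Csf1r was 0.03 as deposited, 0.03 with median centring, 0.05 under array weights and 0.01 with the B cell covariate. Mpeg1 was 0.02, 0.02, 0.01 and 0.08 in the same settings. Aif1 was 0.02 under array weights, 0.07 with the B cell covariate, 0.00064 with the adipocyte score and 0.0024 with Csf1r as covariate. Clec7a was 0.03 with array weights, and Tyrobp -0.06 with the myeloid score. With 1 array left out the range was -0.12 to 0.10 for Csf1r, -0.12 to 0.07 for Mpeg1, -0.05 to 0.07 for Aif1, -0.07 to 0.09 for Clec7a, -0.10 to 0.10 for Tyrobp, -0.01 to 0.32 for Lyz2, -0.04 to 0.16 for Tlr7, -0.0031 to 0.18 for Csf1 and -0.21 to 0.03 for Vsig4.

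With the replicate number as a block 0 members and 8 genes passed, and Fcgr2b was at 0.63 with adjusted p = 0.14. The labels do not say that equal numbers mark pairs, so they were not taken as pairs in the main fit. Deviations from the genotype means in same-numbered glands correlated at -0.204, 0.063, 0.209 and -0.095 across genes. For flox/+ 2 and 3 the same-numbered flox/flox gland had the highest correlation, and for flox/+ 1 and 4 another did. The block changed no call of a member. No correlation with the B cell or adipocyte score passed under any alternative (0 each). Dim probe sets such as Vsig4 cannot be told from background.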

Other observations

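The genes beside the Fc gamma receptor cluster on chromosome 1 were looked up after the receptors' values had been seen. Of the 3 nearest measured genes on each side, Dusp12, Fcrlb and Fcrla were at 0.09, -0.11 and -0.11 on the log2 scale (flox/flox minus flox/+), and Cfap126, Sdhc and Pcp4l1 at 0.11, 0.13 and -0.05. Each had an unadjusted limma p above 0.05. From Fcgr2b to Fcgr3, Fcgr2b was at 0.63, Gm10522 at -0.11, Fcgr4 at 0.11 and Fcgr3 at 0.32.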
